A study of Mus musculus with 4 samples.

Results

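The 204 miRNAs described here were the 3p arms of mouse miRNAs numbered from 6880 to 7120, with or without a letter after the number, among 1881 miRNAs on the array (10.8%). They were chosen by name alone, and the numbers found on the array ran from 6896 to 7119. The 204 arms carried 202 distinct numbers, and 4 of them carried a letter (miR-6973a, miR-6973b, miR-7036a and miR-7036b). The prefix mmu of the names in the files is left out here.

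The study asked which miRNAs leave 3T3-L1 cells, a mouse fibroblast-like line that can be turned into adipocytes, while the cells differentiate. All groups were the same line grown with 10% fetal bovine serum depleted of exosomes. D0 was the day of the change from growth medium to a differentiation medium with 1-methyl-3-isobutylxanthine, dexamethasone and insulin, which was followed after 2 days by medium with insulin, and D4, D12 and D16 were counted from that change. The exosome fraction of the culture medium was pelleted by ultracentrifugation, and the RNA of each day was labelled with Cy3 and hybridised to 1 array. Each array held a pool, of 2 experiments by the study's methods and of 3 by the labels, so there was no replicate array and no test between days. Measured values are total gene signals, in linear intensity units, which the array software sums over the probes of a miRNA that passed on that array. A probe passed when its signal exceeded 3 times its error, and a miRNA with at least 1 such probe was called detected.

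A mirtron is a short intron that, once spliced out, folds into a hairpin that Dicer can cut, so that it bypasses the Drosha step of ordinary miRNAs. Its 3p arm comes from the 3′ end of the intron, where a pyrimidine tract and a closing AG are needed for splicing, while its 5p arm starts at the 5′ splice site. Either arm can be loaded into an Argonaute protein, and the bases near its 5′ end, the seed, set which messenger RNAs it pairs with.

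Mature sequences from RefSeq (GRCm38.p6) were matched to 180 of the 204 members. They are written 5′ to 3′ with the seed, bases 2 to 8, in capitals. The members with the largest D12/D0 ratios among those detected on all 4 days, both members listed by name in the study among them, are shown because their ratios depended on how many probes were summed.
miR-7058-3p: cUCGUUCCuuccuuucuuccag
miR-7070-3p: cAGGCUCUccuucccuccag
miR-7005-3p: cUGUGCCUgcuacccaucccuugca
miR-7034-3p: uUGGCCUUccuucccuacccuaca
miR-7058-3p lay at chr7:126367971-126367992 on the minus strand, within the span of Lat, an adaptor of T cell receptor signalling. miR-7070-3p lay at chr8:85062152-85062171 on the plus strand, within the span of the F-box gene Fbxw9. miR-7005-3p lay at chr2:180179756-180179780 on the minus strand, within the laminin gene Lama5, and miR-7034-3p at chr5:135735807-135735830 on the minus strand, within the membrane protein gene Tmem120a.

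The members with the highest signals are shown because all of their probes passed on every day. miR-6923-3p was also among them.
miR-7047-3p: uCACCCUCacccuuccuccuucc
miR-7085-3p: uAGCUGGCcucuccccaccuuc
miR-7011-3p: uCUGCUUCccuccuccucuag
miR-7017-3p: aCCCUGCUccucucccuccag
miR-7084-3p: gCCUCUGAccccuguccucugc
miR-7085-3p lay at chr9:44400465-44400486 on the plus strand, within the glucose phosphate transporter gene Slc37a4. miR-7011-3p lay at chr3:88440879-88440899 on the minus strand within the semaphorin gene Sema4a, miR-7017-3p at chr4:133195696-133195716 on the plus strand within the actin regulator gene Wasf2, and miR-7084-3p at chr9:22113951-22113972 on the minus strand within the transcription elongation gene Elof1.

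The members with the smallest D12/D0 ratios among those detected on all 4 days are shown for contrast with those of the largest ratios.
miR-6976-3p: aUCUCCCUcccaacuccccag
miR-6999-3p: cUUCAGCUguccuccuuucugu
miR-7036a-3p: cCGUCCUCauccgcuccucccag
miR-7016-3p: aCCUGCCUccugcucuccccag
They lay within the spans of Srf, a transcription factor gene, Dgkz, a diacylglycerol kinase gene, Srrt, whose protein binds capped RNA with the cap-binding complex, and Tmem39b.

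Members detected on 3 of the days, with the highest signals among members detected on some days only, are shown because they appeared after D0 or were lost on D16.
miR-6929-3p: cAGGUGCUgucuucuucuuccag
miR-6942-3p: uUAUGGUUcucuccaccucuca
miR-7014-3p: cCUCUUUCauaccaaccacag
miR-7020-3p: aACCCCUCucuucucucccag
miR-6904-3p: uCUGAUCUcuuaccccag
miR-7050-3p: uCUCAGCCuuuaucuccccag
Their gene spans were Ptges3l, Zkscan3, Ecm1 (an extracellular matrix gene), Aldh4a1 (an enzyme of proline breakdown), Parp1 (a DNA repair enzyme) and Fxyd5 (a small membrane protein).

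Among the 180 sequences there were 172 distinct seeds, and 15 members fell into 7 groups with a shared seed. The largest group, of 3 members, is shown as the only seed held by more than 2 of the 180. It lay in Hspg2, Pik3cd and Cherp, and none of its members was detected on any day.
miR-7018-3p: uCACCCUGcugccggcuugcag
miR-7023-3p: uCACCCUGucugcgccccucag
miR-7068-3p: uCACCCUGgacugacucucag
No group had 2 members detected on the same day. Sequences were matched for 78 of the 85 members detected on any day. Of these, 7 shared a seed with a miRNA outside the list, and that miRNA was itself detected in 1 case, miR-18a-3p, which shares its seed with miR-7069-3p.

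The members with the highest and the lowest share of C are shown because they bracket the base composition, a choice made after the values were seen.
miR-7045-3p: uCUCCCCCcucccccgcacag
miR-7092-3p: uGUUCUUUguuuuguuugccuuag
miR-7045-3p lay within the chromatin remodeller gene Chd4 and miR-7092-3p within Fam50a, and neither was detected on any day.

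The block of numbers was taken as one rich in mirtron-like hairpins, so marks of introns were in part set by that choice. The sequences held such marks. Of 180 members, 140 ended in AG (77.8%) and 122 in CAG (67.8%), whereas CAG closed 2.21% of the 5p arms of the same numbers and 4.85% of the 3p arms outside them. The median share of pyrimidines was 72.1% in members, 31.8% in the 5p arms of the same numbers and 54.5% in 3p arms outside the numbers. The median longest unbroken pyrimidine run was 8 bases in members, 3 in those 5p arms and 4 in other 3p arms. Hairpin sequences, matched for 174 members, showed the same arrangement. The mature 3p arm ended exactly where the hairpin ended in 129 of 174 members (74.1%) and in 99 of 464 other 3p arms (21.3%). The hairpin ended in AG in 164 of 174 (94.3%), against 44 of 464 (9.48%) for the others. It lay within the span of a protein-coding gene in 173 of 174 members (99.4%) and in 262 of 464 others (56.5%). Exons, introns and the strand of the genes were not analysed here, so the position of each hairpin against an intron's end was not measured. Median hairpin length was 66 bases in members and 80 in the others.

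Members that lay in the same gene span were few. The gene Ankrd52 held miR-6914-3p and miR-6915-3p, Cmip held miR-7077-3p and miR-7078-3p, and Srebf1, the gene of a lipid synthesis regulator, held miR-6921-3p and miR-6922-3p. In each of Ankrd52 and Srebf1 only 1 of the neighbours was detected on any day, miR-6914-3p and miR-6921-3p, and in Cmip neither was.

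On D0 66 of 204 members were detected (32.4%), where 17.5% of all miRNAs on that array were. On D4 83 were detected (40.7%, all miRNAs 22.6%), on D12 79 (38.7%, all miRNAs 21.6%) and on D16 72 (35.3%, all miRNAs 20.2%). The members' share was thus above that of the whole array on each of the 4 arrays, and both were highest on D4, although the members' count was higher on D12 than on D4 when the limit was 2 times the error (105 and 103) or when 50% of a probe's spots had to be well above background (61 and 59). Of the 5p arms of the same numbers, 35 of 205 were detected on D0, 30 on D4, 28 on D12 and 26 on D16, so they were fewer on D4 than on D0 where the members were more, and fell after D4 as the members did. Of 581 3p arms outside the numbers, 96, 134, 134 and 125 were detected. Members made up 20.1% of the miRNAs detected on D0 and 19.5%, 19.5% and 18.9% on D4, D12 and D16. Their part of the summed signal was smaller, 6.71%, 5.48%, 5.89% and 5.71%.

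**Figure D1:**
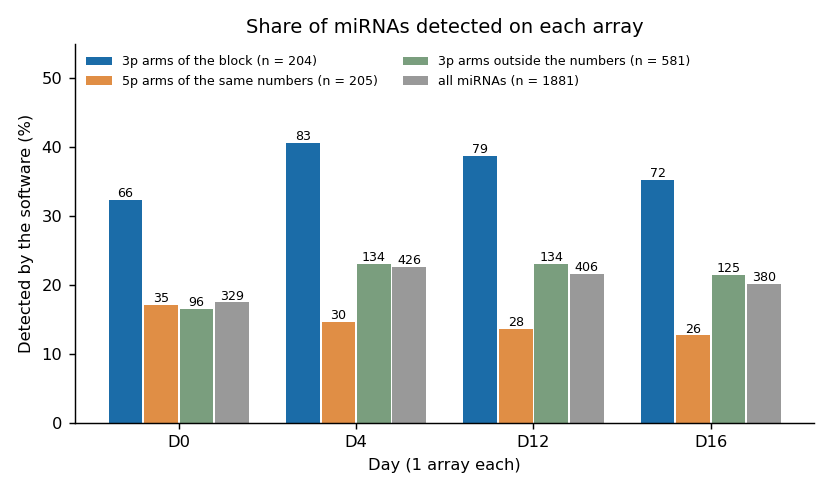
Percent of miRNAs called detected on each day's single array, for the 204 members, the 5p arms of the same numbers, the 3p arms outside the numbers and all miRNAs, with counts above the bars. The members stand between 32.4% and 40.7% and all miRNAs between 17.5% and 22.6%.

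Of the 204 members, 62 were detected on all 4 days (30.4%, all miRNAs 15.0%), 23 on some days (11.3%, all miRNAs 9.78%) and 119 on none (58.3%, all miRNAs 75.2%). Of the 23, 12 were detected on 3 days, 5 on 2 and 6 on 1. Between D0 and D4 18 members were gained and 1 was lost, between D4 and D12 2 were gained and 6 lost, and between D12 and D16 1 was gained and 8 lost. No member was detected on D0 alone. Detected on D4, D12 and D16 but not on D0 were 8 members, miR-6911-3p, miR-6929-3p, miR-6942-3p, miR-6981-3p, miR-7014-3p, miR-7020-3p, miR-7027-3p and miR-7080-3p. Detected on D4 alone were 5, miR-6914-3p, miR-6984-3p, miR-6988-3p, miR-7073-3p and miR-7117-3p. The 4 members found on D4 and D12 were miR-7001-3p, miR-7008-3p, miR-7025-3p and miR-7057-3p, and the 3 lost only on D16 were miR-6904-3p, miR-6931-3p and miR-7050-3p. Singular patterns were those of miR-7062-3p, missed only on D4, miR-6944-3p, found only on D12, and miR-6906-3p, found on D4 and D16. All these members are named for their values.

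Signals near the detection limit were about as frequent among the members as among other miRNAs. A signal was called near the limit when it was below 2 times a bound of 3 times the miRNA's total gene error. This held for 26 of the 66 members detected on D0 (39.4%, all other miRNAs 35.7%). The corresponding counts were 24 of 83 on D4 (28.9%, others 25.4%), 21 of 79 on D12 (26.6%, others 31.8%) and 20 of 72 on D16 (27.8%, others 32.1%). For a member not detected on a day, the limit was taken instead as 3 times the error summed over its probes. Of the 19 members detected later but not on D0, 11 of 18 detected on D4 had a signal above their D0 limit, 7 of 13 on D12 and 4 of 9 on D16. After division by the spike-in RNAs, added control RNAs that the array software lists, these fell to 4, 2 and 2. For the others a signal of the same size could have gone undetected on the D0 array.

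Among them miR-6929-3p had the highest signal. It was not detected on D0, where its limit was 5.11, and reached 14.7 ± 1.99 (technical error within the array) on D4, 11.8 ± 1.77 on D12 and 9.19 ± 1.41 on D16. Its signal was thus at least 2.88-fold higher on D4 than on D0, without scaling. miR-6942-3p was at least 2.38-fold higher on D4, with all 3 of its probes passing on the later days and none on D0. For miR-7014-3p the bound was 2.21-fold and for miR-7020-3p, with 1 of 2 probes passing on each later day, 2.07-fold. Without scaling all 4 were lower on D16 than on D4. With each array divided by the 75th percentile of miRNAs detected on all days, the 4 bounds for D4 fell below 1 and the order of D4 and D16 was turned round. In the other direction, miR-6904-3p gave 5.52 ± 1.23 on D0, 9.69 ± 1.82 on D4 and 9.58 ± 1.70 on D12 and was not detected on D16, where its limit was 5.51. Its D0 signal lay next to that limit. The same held for miR-7050-3p, with 5.65 ± 1.23 on D0 and a limit of 5.53 on D16.

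How many probes were summed differed between days. Of the 204 members, 188 had 2 probes and 16 had 3, 424 in all, with 30 spots for each miRNA. On D0 118 of the 424 probes passed, on D4 156, on D12 149 and on D16 134. All probes of a detected member passed for 49 of 66 on D0, 67 of 83 on D4, 65 of 79 on D12 and 57 of 72 on D16. Only 1 probe passed for 17, 15, 14 and 14 detected members. When a probe passed on a later day and not on D0, the total gene signal of the later day held a term that the D0 sum lacked.

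The median signal of the detected members was 9.27 on D0, 16.7 on D4, 15.6 on D12 and 12.6 on D16. Their median technical error was 14.2%, 12.4%, 12.2% and 12.1% of the signal. Of the 62 members detected on all days, without scaling, 51 were highest on D4 and 11 on D12, and 54 were lowest on D0 and 8 on D16. Of the 221 other miRNAs detected on all days, 159 were highest on D4 and 50 on D12, and 149 were lowest on D0 and 67 on D16, so these days were the most frequent ones across the array. In 45 of the 62 members the signals fell in the order D4, D12, D16, D0. In these bulk fractions, fewer vesicles and less RNA per vesicle cannot be told apart.

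Without scaling, the members' median ratio to D0 was 2.09 on D4, 1.90 on D12 and 1.24 on D16, and it passed to the other side of 1 under several scalings between arrays. Division by the 75th percentile of miRNAs detected on all days gave medians of 0.491, 0.576 and 0.547, and quantile normalisation 0.753, 0.886 and 0.844. Division by the spike-in mean gave 1.15, 1.101 and 0.973, and division by the 75th percentile of all probes 0.991, 1.08 and 0.927. The direction of change of the members as a group was therefore set by the scaling. The median of all miRNAs moved with it, from log2 ratios of 1.30 on D4, 0.94 on D12 and 0.40 on D16 without scaling to -0.79, -0.78 and -0.78 under the first of those scalings. With the spike-in mean it was 0.44, 0.15 and 0.05, and with quantile normalisation -0.16, -0.14 and -0.19. With the 75th percentile of all probes it was 0.23, 0.12 and -0.02. Without scaling the members' median was below that of all other miRNAs on each of the 3 days, and 4 of the scalings, which divide an array by a constant, cannot change that order. Under the 9 other alternatives it was below in 9 on D4, 6 on D12 and 9 on D16.

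**Figure D2:**
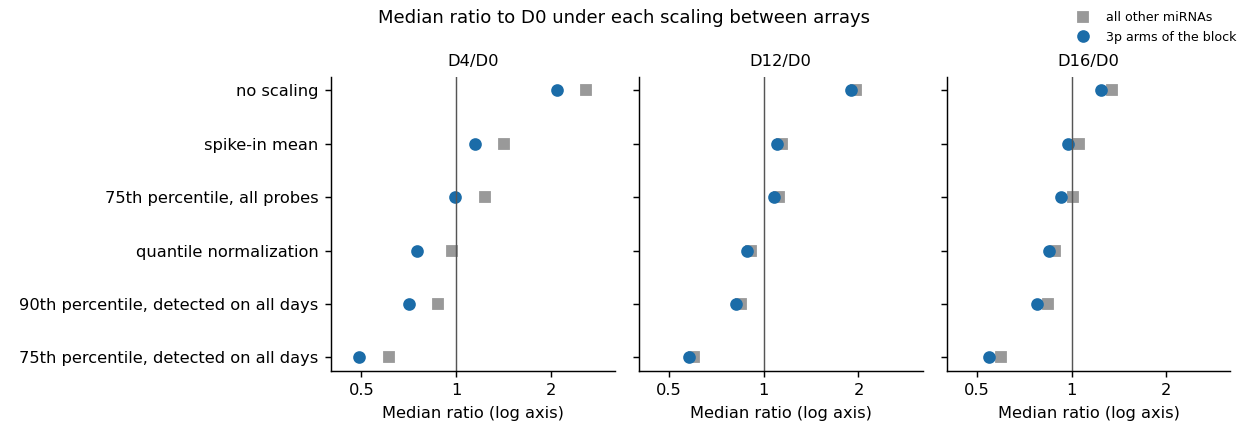
Median ratio to D0 (log axis) of the members and of all other miRNAs on D4, D12 and D16 without scaling and under 5 scalings between arrays. The members' median on D12 is 1.90 without scaling, 1.101 with the spike-in mean and 0.576 with the 75th percentile of miRNAs detected on all days, so it lies on either side of 1.

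On D4 65 members were detected on both days, with ratios from 1.22 to 7.00 without scaling. Above 2 were 35 of them (53.8%), where 62.1% of all miRNAs were, and below 0.5 none, where 0.315% of all miRNAs were. On D12 66 members gave ratios from 1.32 to 5.47, with 27 above 2 (40.9%, all miRNAs 47.8%) and none below 0.5 (all miRNAs 3.37%). On D16 63 members ranged from 0.545 to 4.81, with 11 above 2 (17.5%, all miRNAs 31.1%) and none below 0.5 (all miRNAs 9.34%). Without scaling, the members' share past either fold was below that of the array on each of the 3 days. With the 75th percentile of miRNAs detected on all days, 33 members fell below 0.5 on D4, 19 on D12 and 21 on D16. Members above 2 then numbered 0, 0 and 1. The share of all miRNAs was not counted under that scaling, so the unscaled order may not hold there.

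The ratios of the members to D0 lay close together. Their standard deviation on the log2 scale was 0.60 on D4, 0.47 on D12 and 0.60 on D16, and that of all other miRNAs was 1.09, 1.41 and 1.41. Dividing an array by any constant leaves this spread as it is. It became smaller still, 0.43, 0.27 and 0.38, when only the probes that passed on both days were summed. The median technical error of a D12/D0 ratio was 18.5%. The spike-in RNAs themselves rose to 1.82 times D0 on D4 (range of 4 RNAs 1.64 to 1.99), 1.72 on D12 (1.52 to 1.89) and 1.27 on D16 (1.14 to 1.37). Within 1.5-fold of the spike-in ratio, a span chosen after the values were seen, lay 53 of 66 members on D12 (80.3%), where 47.5% of all miRNAs did. The corresponding counts were 48 of 65 on D4 (73.8%, all miRNAs 48.6%) and 50 of 63 on D16 (79.4%, all miRNAs 46.4%). On each day most of the members detected on both days thus had a ratio within that span of the added control RNAs, whose part in the result was not tested.

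**Figure D3:**
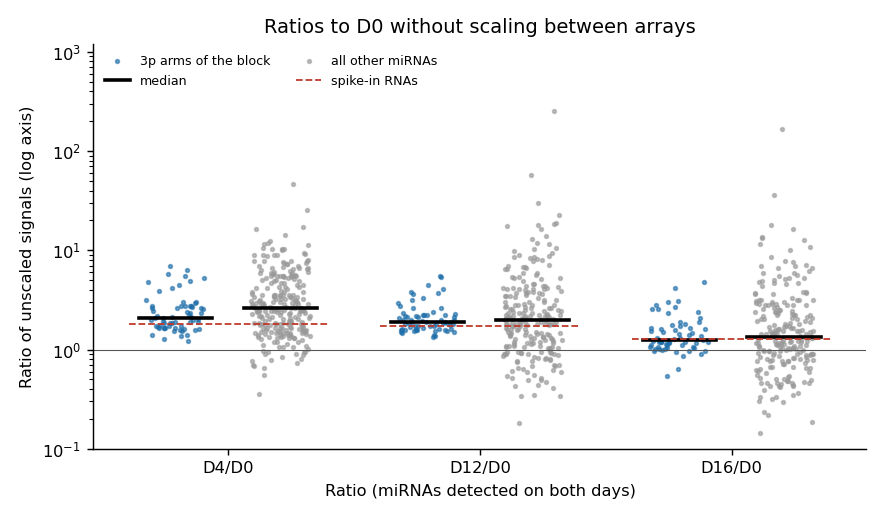
Ratio of unscaled signals to D0 (log axis) for each member and each other miRNA detected on both days, with medians as black bars and the spike-in ratio as a dashed line. On D12 the members run from 1.32 to 5.47 around a median of 1.90, near the spike-in ratio of 1.72, and under 3 of the 5 scalings between arrays that median falls below 1.

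The largest ratios came with a change in the number of probes. On D12 55 members had the same number of probes summed as on D0, and their median ratio was 1.82, with 16 above 2. The other 11 had more probes on D12, a median of 3.75, and all 11 were above 2. A rise since D0 itself brings probes over the limit, so a larger median in this class was in part set beforehand. The split therefore cannot tell how much of a ratio came from the number of probes. Across the array, where the same limit applies, 231 miRNAs with the same number had a median of 1.81. The 66 with another number had a median of 3.82, 52 of them above 2, which is no separate evidence. On D4 the medians were 1.92 for 53 members with the same number and 4.70 for the other 12, and on D16 1.20 for 51 and 2.62 for 12. Over shared probes alone the highest D12/D0 ratio was 3.16 in place of 5.47, and 23 members were above 2 in place of 27. Across the array 130 of 297 miRNAs were, in place of 142.

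miR-7070-3p had the largest D12/D0 ratio. Its signal was 2.67 ± 0.862 on D0, 18.7 ± 2.14 on D4, 14.6 ± 1.87 on D12 and 12.9 ± 1.54 on D16, from 1 probe on D0 and 2 on each later day. The D0 value was the low one, and the 3 later values lay well above it. The D12/D0 ratio was 5.47 ± 1.90, or 2.48 over the shared probe. With the spike-in mean it was 3.18, and with the 75th percentile of miRNAs detected on all days 1.66, but over the shared probe that last divisor gave 0.755, so the direction on like probes depended on the scaling. miR-7058-3p had the same form. Its signal was 3.55 ± 0.897 on D0 from 1 probe and 22.4 ± 2.34, 16.0 ± 1.94 and 14.7 ± 1.64 on the later days from 2. The D12/D0 ratio was 4.51 ± 1.26, or 2.58 over the shared probe, and between 1.37 and 2.62 under the scalings. Over the shared probe it was 0.785 with the 75th percentile of miRNAs detected on all days.

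miR-7005-3p had 3 probes, of which 1 passed on D0, all on D4 and D12, and 2 on D16. Its signal was 2.09 ± 0.588, 12.1 ± 1.56, 11.2 ± 1.44 and 5.32 ± 0.914 on the 4 days. It was thus high on D4 and D12 and in between on D16, and its D12/D0 ratio of 5.38 became 2.49 over the shared probe. miR-7034-3p went from 4.61 ± 0.940 on D0 with 1 probe to 25.7 ± 2.56, 18.9 ± 2.08 and 13.1 ± 1.58 with 2, a D12/D0 ratio of 4.10, or 2.56 over the shared probe. With the 75th percentile of miRNAs detected on all days both stayed above 1 as summed, 1.63 and 1.25, and fell below 1 over the shared probe, 0.758 and 0.777.

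The brightest members had both probes summed on every day. The signal of miR-7047-3p was 70.0 ± 5.17 on D0, 194 ± 13.9 on D4, 156 ± 11.2 on D12 and 113 ± 8.10 on D16. miR-7085-3p followed with 65.8 ± 5.34, 180 ± 13.6, 145 ± 11.05 and 105 ± 7.93. In both, D4 was highest, D0 lowest, and each day stood apart from the next by more than the technical error. miR-6923-3p gave 51.5 ± 4.09, 134 ± 9.96, 114 ± 8.49 and 80.9 ± 6.03, and miR-7011-3p 42.0 ± 3.23, 115 ± 8.30, 92.2 ± 6.72 and 69.4 ± 5.07. miR-7017-3p gave 26.0 ± 2.33, 78.6 ± 6.06, 61.0 ± 4.86 and 49.4 ± 3.88, and miR-7084-3p 25.1 ± 2.21, 54.6 ± 4.35, 50.1 ± 3.97 and 32.8 ± 2.69. Without scaling the 6 members had one order of days, D4, D12, D16, D0. Their D12/D0 ratios without scaling were 2.23, 2.21, 2.21, 2.20, 2.35 and 2.00. With the spike-in mean they were 1.30, 1.28, 1.28, 1.28, 1.36 and 1.16. Probe sensitivity differs between miRNAs, so the order of these signals says nothing of their amounts.

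The smallest D12/D0 ratio was that of miR-6976-3p. Its signal was 16.9 ± 1.70 on D0, 27.6 ± 2.60 on D4, 22.4 ± 2.23 on D12 and 14.6 ± 1.62 on D16. D0 and D16 differed by about the size of their errors. The D12/D0 ratio was 1.32 ± 0.187 without scaling and 0.769 with the spike-in mean, so its direction depended on the scaling. The next smallest ratio, 1.38, was that of miR-6931-3p, which was not detected on D16. miR-6999-3p, with 1 of 2 probes passing on every day, had a ratio of 1.39 ± 0.490, miR-7036a-3p of 1.48 ± 0.326 and miR-7016-3p of 1.497 ± 0.233. With the spike-in mean the ratios of these last 3 members were 0.809, 0.858 and 0.869.

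**Figure D4:**
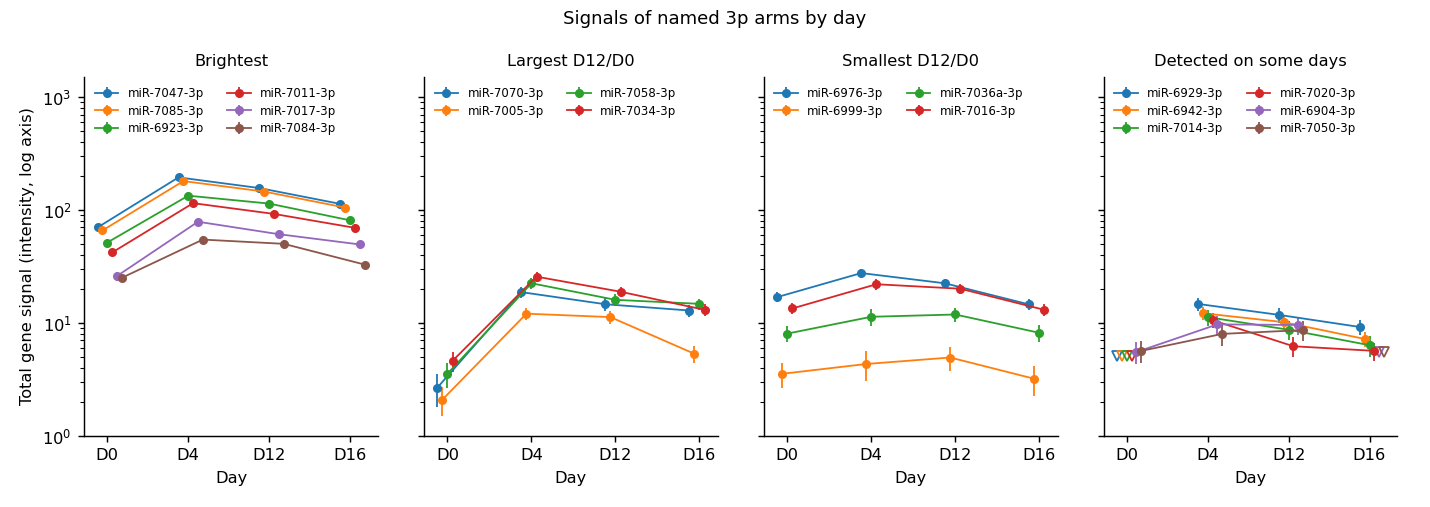
Total gene signal (intensity, log axis) by day of the members with the highest signals, the largest and the smallest D12/D0 ratios, each among members detected on all 4 days, and the highest signals among those detected on some days, with the technical error within the array as bars and open triangles at the detection limit where a member was not detected. The 6 brightest are lowest on D0 and highest on D4 without scaling, and their D12/D0 ratios of 2.00 to 2.35 fall below 1 with the 75th percentile of miRNAs detected on all days.

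The ratio of D16 to D12 does not use the D0 array. Of 71 members detected on both D12 and D16, the median D16/D12 ratio without scaling was 0.690, where the spike-in ratio was 0.739. The standard deviation on the log2 scale was 0.30 in members, 0.30 in 3p arms outside the numbers and 0.36 in all other miRNAs. Within 1.5-fold of the spike-in ratio lay 91.5% of members and 90.0% of all miRNAs. For this ratio the members thus lay about as close together as other miRNAs did. The D12/D4 ratio does not use the D0 array either, and there the members lay closer together than the others. Its standard deviation on the log2 scale was 0.25 in 77 members, 0.84 in 3p arms outside the numbers and 0.90 in all other miRNAs. Within 1.5-fold of its spike-in ratio lay 96.1% of members and 70.6% of all miRNAs. For D16/D12, 5 members were below 0.5 (7.04%), where 7.28% of all miRNAs were. They were miR-6970-3p, miR-6897-3p, miR-6921-3p, miR-6953-3p and miR-7005-3p, named after their values were seen. Each of the 5 had fewer probes summed on D16 than on D12. Over shared probes the lowest D16/D12 ratio of a member was 0.562.

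The arms of a hairpin could be compared because dividing an array by any constant keeps the order of their ratios. Both arms were on the array for 203 hairpins. On D0 both arms were detected for 12, the 3p arm alone for 54, the 5p arm alone for 23 and neither for 114. On D12 the counts were 13, 66, 15 and 109, and on D16 9, 63, 17 and 114. The 3p arm alone was thus the more frequent state among detected hairpins on every day, with 70 on D4 beside 13 with both and 17 with the 5p arm alone. Of the 11 hairpins with both arms detected on D0 and D12, the D12/D0 ratio was higher for the 3p arm in 11. In 7 of them the difference was beyond 2 technical errors, and in 4 it was within them. The median ratio was 2.12 for the 3p arms, from 1.38 to 5.47, and 0.702 for the 5p arms, from 0.337 to 1.40. Without scaling 7 of these 11 5p arms and none of the 3p arms were below 1, and where 1 lies among them depends on the scaling. Over shared probes the 3p arm was again higher in 11 of 11, with medians of 2.12 and 0.898. The paired 5p arms were lower than the 5p arms of the same numbers at large. Of all 25 with a D12/D0 ratio, 14 were above 1 without scaling, with a median of 1.17 and a range from 0.337 to 3.69. The median of all 66 members with this ratio was 1.90.

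Single hairpins were picked after their values were seen. The hairpin of miR-7011 showed the parting of its arms with all probes summed on D0, D4 and D12. The 3p arm gave 42.0, 115, 92.2 and 69.4 on the 4 days, and the 5p arm 27.7, 26.8, 9.32 and 4.01. The 3p arm was lowest on D0 and the 5p arm lowest on D16, where 1 of its 2 probes passed. The D12/D0 ratios were 2.20 ± 0.233 and 0.337 ± 0.0674. For miR-7118, with both probes of each arm summed on every day, they were 2.12 ± 0.321 for the 3p arm and 0.351 ± 0.0379 for the 5p arm. For miR-7047 they were 2.23 and 0.684, and on D4 the order was the reverse, 2.78 for the 3p arm and 3.85 for the 5p arm. The 5p arm of miR-7036a was also ahead on D4, 3.24 against 1.41, and behind on D12, 0.898 against 1.48. Of the 10 hairpins with both ratios on D4, the 3p arm was higher in 6 and the 5p arm in 4, the others of the 4 being miR-6931 (2.39 against 1.66) and miR-7050 (2.90 against 1.41).

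**Figure D5:**
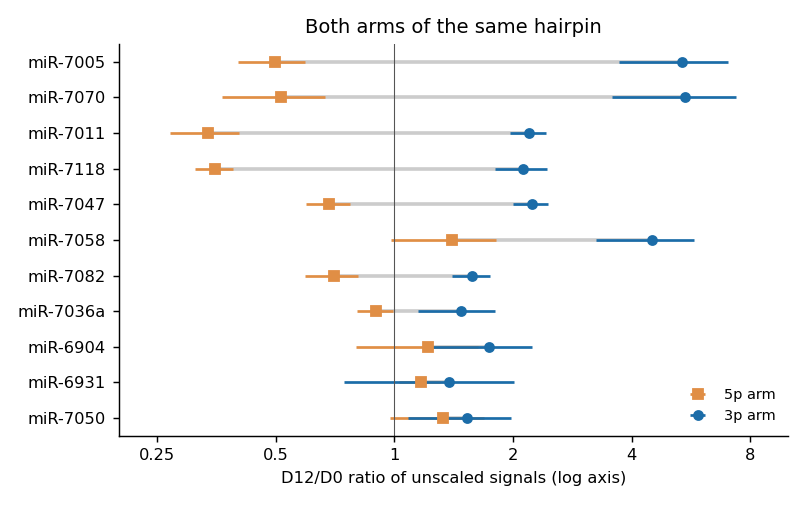
D12/D0 ratio of unscaled signals (log axis) of the 3p and the 5p arm for the 11 hairpins with both arms detected on both days, with technical errors as bars. The 3p arm lies to the right in 11 of 11, an order kept under any constant divisor of an array, although the place of 1 depends on that divisor.

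Detection among the members followed their base composition. The median share of C was 47.6% in the members detected on all 4 days and 36.4% in those detected on no day, while their pyrimidine shares were 72.7% and 71.4%. The 5p arms of the same numbers had the opposite order, with a median of 9.52% C in those detected on at least 1 day. It was 13.96% in those detected on no day. The following classes of C content were chosen after the values were seen. From 12.5% to 33.3% C, 4 of 45 members were detected on any day (8.89%) and 0 on all 4 days. From 34.8% to 40.9%, 19 of 51 were (37.3%), and 11 on all 4 days. From 41.7% to 47.4% C, 22 of 40 were (55%), and from 47.6% to 66.7% 33 of 44 (75%). The share detected thus rose with each class. Among 3p arms outside the numbers in the same classes, 17.3%, 34.7%, 24% and 75% were detected on any day, from 375, 75, 25 and 20 arms. The rise in those arms was broken in the class with 25. miR-7045-3p, with 66.7% C the highest share among the members, was detected on no day, so a high share of C did not go with detection in every member. miR-7092-3p, with 12.5% the lowest share, was not detected either. Of the next members by C content, miR-7047-3p (60.9%) was detected on all 4 days. Of the 5 members tied at 57.1%, miR-6976-3p, miR-7017-3p, miR-7052-3p and miR-7069-3p were detected on all 4 days and miR-7004-3p on none. Labelling, hybridisation and the amount of each RNA cannot be told apart by these arrays, and the part of base composition in the result was not tested.

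Long-known mirtrons with lower numbers were read beside the members, both arms of miR-877, miR-1224 and miR-702. miR-877-3p gave 115 on D0, 289 on D4, 248 on D12 and 166 on D16, and its 5p arm was not detected on any day. Its D12/D0 ratio of 2.16 and that of miR-702-3p, 1.80 (6.49, 11.7, 11.7 and 8.61 on the 4 days), fell among those of the members, and like theirs they depend on the scaling. miR-702-5p was not detected. miR-1224-5p gave 538, 1085, 965 and 824, while miR-1224-3p was not detected on D0 and gave 9.01, 6.35 and 5.82 later. The D12/D0 ratio of the 5p arm miR-1224-5p, 1.79, also fell among those of the members. The unscaled median of all miRNAs was 1.91, so these ratios do not set mirtron 3p arms apart.

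The arrays themselves differed in ways that moved with the days. On D0 the spread among spots of the same probe was 21.1%, out of the software's own range, and on D4, D12 and D16 it was 7.19%, 7.78% and 8.07%. The software fell back on a default spot size on D0 and D16 and measured it on D4 and D12. The mean signal of the negative controls rose from 1.08 on D0 to 1.56, 1.85 and 2.75. No spot was saturated. The D0 array is the divisor of every ratio to D0, and the part of these values in the result was not tested.

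The labels call the cells adipocytes on all days, and fewer miRNAs described in adipocyte differentiation were detected on D0 than later. Of 9 such miRNAs 4 were detected on D0, 7 on D4, 8 on D12 and 8 on D16, with summed signals of 14.1, 234, 269 and 200. Of all miRNAs 17.5%, 22.6%, 21.6% and 20.2% were detected on these days, so the list was above the array's share on each. The highest signal among them on D12 was that of miR-103-3p, and miR-145a-5p was not detected on any day. Markers of other cells were read too. The 3 red blood cell miRNAs summed to 9.40 on D0, where 1 was detected, and to 468, 2524 and 1649 with 3 detected, and the highest signal was that of miR-451a. Of 3 leukocyte miRNAs 0, 1, 2 and 2 were detected, with sums of 0, 16.9, 76.9 and 52.9, most of it miR-223-3p, and miR-150-5p was not detected on any day. The endothelial miR-126a-3p was not detected on D0 and gave 13.4, 54.0 and 59.9, and the liver miR-122-5p gave 6.26 on D12 and 4.13 on D16 and was not detected before. None of 3 striated muscle miRNAs was detected on any day. Apart from the muscle list, at 0 throughout, these sums were higher on D12 than on D0, as the members' summed unscaled signal was. All of them were also higher on D12 than on D4, where the members' unscaled sum fell from 2146 to 1823. The 75th percentile of miRNAs detected on all days divides D4 by 4.26 and D12 by 3.29, which turns that fall into a rise. The part of these marker miRNAs in the result was not tested.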

How the data were processed

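The deposited files hold intensity values that the authors obtained with Feature Extraction 11.0.1.1 (Agilent Feature Extraction 11.0 in the labels), background-subtracted and not scaled between arrays, with 0.1 listed where a miRNA was not detected. The rule that a probe passes above 3 times its error gave the software's call for all 1881 miRNAs on each array. Ratios divide a day's total gene signal by that of D0 over members detected on both days, with fold thresholds of 2 and 0.5. There is 1 array per day, which limits the precision, so no test was made. Errors are the software's within-array errors. Members and lists were chosen with earlier results of these data known. Ratios printed in the study were not used here. The position of 1 named member is not reported here.

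Members were named by a rule, both members that the study lists, among members detected on all 4 days the 6 with the highest mean log2 signal and 4 at each end of the D12/D0 ratios, the 6 highest among those detected on some days, members detected at D0 alone, and members sharing a seed with another detected on the same day. Alternatives covered detection limits, 5 scalings between arrays, the probes summed, normexp background with an offset of 50 (limma 3.58.1 in R 4.3.3), fold thresholds and, chosen after seeing the data, the left or right side of the array. Other steps were run in Python 3.11.15 with pandas 2.3.3, numpy 2.4.6 and scipy 1.17.1.

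Cell type markers were, for adipocyte differentiation, miR-143-3p, miR-145a-5p, miR-378a-3p, miR-30a-5p, miR-30d-5p, miR-193b-3p, miR-365-3p, miR-103-3p and miR-107-3p, for red blood cells miR-451a, miR-144-3p and miR-486a-5p, for leukocytes miR-223-3p, miR-142a-3p and miR-150-5p, for endothelium miR-126a-3p, for liver miR-122-5p, and for striated muscle miR-1a-3p, miR-133a-3p and miR-206-3p.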

Additional observations from a re-analysis of the deposited data

How the results depend on the processing

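With 1 array per day, error between experiments was not measured, and many members lay near their detection limit. No cause of the following shifts was tested except where the alternative itself sets it, as a new threshold or divisor does. From D0 to D16 the counts detected were 43, 59, 61 and 54 when 50% of a probe's spots had to be well above background, 91, 103, 105 and 97 with 2 times the error, where D12 exceeded D4 in both, and 40, 54, 52 and 47 with 5 times the error. Median ratios to D0 at D4, D12 and D16 were 0.491, 0.576 and 0.547 with the 75th percentile of miRNAs detected on all days, 0.991, 1.08 and 0.927 with that of all probes, 0.707, 0.818 and 0.776 with the 90th percentile, 0.753, 0.886 and 0.844 with quantile normalisation, and 1.15, 1.101 and 0.973 with the spike-in mean. At D4 and D12 they were 1.503 and 1.47 from median spot signals, 1.16 and 1.1001 with normexp, and 1.30 and 1.23 on the right side of the array, and at D16 1.55 on the left side, the sides being chosen after seeing the data. Members above 2-fold at D4, D12 and D16 numbered 0, 0 and 1 with the 75th percentile of miRNAs detected on all days, 8, 7 and 5 with that of all probes, 2, 2 and 2 with the 90th percentile, 10, 7 and 7 with the spike-in mean, 3, 3 and 5 with quantile normalisation, 17, 8 and 4 from median spot signals, 0, 0 and 0 with normexp, and 8, 2 and 4 on the right side. They numbered 15 of 37 at D12 and 4 of 38 at D16 among members above the array's median, a smaller list, 6 at D16 over shared probes and 5 at D16 over all probes. Above 1.5-fold were 60, 60 and 22, above 3-fold 13, 9 and 4, and beyond 2-fold by 2 technical errors 14, 3 and 0. Below 0.5 were 33, 19 and 21 with the 75th percentile of miRNAs detected on all days, 5 at D4 and 2 at D16 with the 90th percentile, 2 at D4 with quantile normalisation, 2 at D16 with the 75th percentile of all probes and 1 at D16 with the spike-in mean, and at D16 2 fell below 1 divided by 1.5. Medians over shared probes, over all probes and over members detected on all 4 days kept the direction of the unscaled ratios at D4, D12 and D16. Over shared probes 74 of 289 miRNAs across the array were above 2-fold at D16. For the other alternatives the share of all miRNAs detected or past a fold was not counted. Those counts therefore cannot tell the members from the rest of the array.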
